A study of Mus musculus with 2 samples.

Results

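The genes described are 9 of the 32285 in the files: Yap1, Wwtr1, Tead1, Lats1, Lats2, Amotl1, Amotl2, Ccn1 and Ccn2, members of the Hippo pathway and targets of its coactivators, taken by gene symbol. Each symbol matched 1 row. The mice were wild type and had undergone burn/tenotomy, a skin burn with a cut tendon, used as a model of bone formation in soft tissue. Their whole blood was sorted on the microfluidic iChip, and the cells that came off it, labelled as blood cells and cMPCs (not spelled out there), were given 10x Chromium barcodes and sequenced as single-cell RNA. The series holds 2 libraries, replicate 1 and replicate 2, of this 1 group. Strain, age and time after injury are not stated in the labels, uninjured mice were not analysed here, and nothing says that the libraries came from separate animals, so their spread may be technical.

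The Hippo pathway restrains growth in response to cell contact and mechanical load. Its kinases Lats1 and Lats2 phosphorylate the coactivators Yap1 (YAP) and Wwtr1 (TAZ), which are then held in the cytoplasm or degraded; unphosphorylated YAP and TAZ enter the nucleus and act through TEAD transcription factors such as Tead1. The angiomotin-like proteins Amotl1 and Amotl2 bind YAP and TAZ and tie them to junctions. Ccn1 and Ccn2 encode secreted matricellular proteins that are among the best known YAP and TAZ targets. The pathway is active in adherent cells such as epithelium, endothelium, mesothelium and fibroblasts, while its kinases also serve in lymphocytes.

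The 9 genes had 220 UMIs (unique molecular identifiers, each standing for 1 captured RNA molecule) in 71 of 1857 barcodes. Their levels were compared between 3 classes of barcodes, with no limit on mitochondrial RNA. Marker barcodes had a UMI of at least 2 of the 5 genes Wt1, Muc16 and Gpm6a, found in mesothelium, and Col3a1 and Dcn, which encode a fibrillar collagen and a collagen-binding proteoglycan. Ptprc barcodes held Ptprc, which encodes the leukocyte surface phosphatase CD45, and globin barcodes had at least 50% haemoglobin UMIs. There were 30 and 23 marker barcodes in replicate 1 and replicate 2, 81 and 12 Ptprc barcodes, and 471 and 373 globin barcodes, after 4 barcodes that met more than 1 definition were left out. Those 4 held 0 UMIs of the 9 genes.

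The libraries held 3967318 and 3329292 UMIs and shared 0 barcode sequences. Median depth was 2160 and 4592 UMIs in marker barcodes, 1629 and 1603.5 in Ptprc barcodes, and 5972 and 6048 in globin barcodes. Over 20% of UMIs were mitochondrial in 12 and 8 marker barcodes, in 26 and 7 Ptprc barcodes, and in 1 and 0 globin barcodes. The Ptprc class of replicate 2 rested on 25627 UMIs, so that 3 UMIs there correspond to 117 UMIs per 1e6 UMIs (CPM), and most of the levels below could not have been seen in it; its median barcode was 56.7% mitochondrial. Intervals and floors cover counting error only.

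Marker barcodes carried 14 of 14 mesothelial markers at 8390 ± 1576 CPM (SD, n = 2, as for every mean ± SD below), against 100 ± 134 in Ptprc and 0.821 ± 0.137 in globin barcodes; 3 of these markers and 2 of the fibroblast list also chose the barcodes. Of 8 fibroblast markers 7 were found (3503 ± 1161 CPM), with Lum at 0. Of 10 leukocyte markers 3 were found, at 26.6 ± 8.16 CPM against 11981 ± 1768 in Ptprc barcodes, and Ptprc, Cd79a and Cd3e were at 0. Endothelial markers, which mark another cell type with high YAP and TAZ activity, summed to 37.0 ± 6.54 CPM in marker and 272 ± 109 in Ptprc barcodes. Cdh5, Vwf, Tek, Emcn, Flt1 and Egfl7 were at 0 in both, and the marker barcodes' 8 endothelial UMIs came from Kdr (7) and Pecam1 (1). Those of the Ptprc barcodes came from Pecam1 (65 and 5 in replicates 1 and 2) and Kdr (1 and 0), so that sum is nearly all Pecam1. Smooth muscle or pericyte markers stood at 0 UMIs in replicate 1 and 27 in replicate 2 of the marker class, epithelial markers at 7 and 47, and platelet markers at 7 and 9. Erythroid markers stood at 442 and 479 UMIs in marker barcodes (4233 ± 511 CPM), 2764 ± 598 CPM in Ptprc barcodes and 892656 ± 7284 CPM in globin barcodes. Of the 165 member UMIs in the marker class, 124 lay in the 47 barcodes with no endothelial UMI, 133 in the 47 with no smooth muscle or pericyte UMI, 133 in the 46 with no epithelial UMI and 80 in the 41 with no platelet UMI. A platelet UMI was found in 12 of 36 marker barcodes with a member and in 0 of 17 without one, whose median depths were 4378 and 1514 UMIs. The platelet UMIs of the class were of Itgb3 (6 and 6 in replicates 1 and 2), Itga2b (1 and 2) and Treml1 (0 and 1). Ppbp, Pf4, Gp9 and Gp1bb were at 0. The part of these lists in the levels of the 9 genes was not tested.

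The 250 bases before the start of transcription were searched for GGAATG, the core letters of the TEAD motif, and its reverse complement CATTCC. RefSeq (GRCm38.p6) gave 9 windows for 7 of the 9 genes; Tead1 and Ccn2 had no entry. The letters were found in 5 windows of 4 genes, Yap1, Wwtr1, Amotl2 and Ccn1, and in 12.6% of all 32851 windows of the same length. The 2 Wwtr1 windows overlap and hold the same site. By gene, 4 of the 7 had the letters, beside 14.4% of all 27025 genes with a window. These 4 are printed because they place the letters in front of a coactivator pair, an inhibitor and a target whose levels are given below, 5′ to 3′ on the gene's strand with the motif in capitals. Its first base lies 141 bases before the start in Yap1 (chr9:8004597-8004846, minus strand), 136 in the Wwtr1 window shown (chr3:57575911-57576160, minus), 65 in Amotl2 (chr9:102717554-102717803, plus) and 103 in Ccn1 (chr3:145649986-145650235, minus). The motif stands as GGAATG in Yap1 and Wwtr1 and as CATTCC in Amotl2 and Ccn1. A match is no evidence of binding, and the windows of Lats1, Lats2 and Amotl1 had none.
Yap1: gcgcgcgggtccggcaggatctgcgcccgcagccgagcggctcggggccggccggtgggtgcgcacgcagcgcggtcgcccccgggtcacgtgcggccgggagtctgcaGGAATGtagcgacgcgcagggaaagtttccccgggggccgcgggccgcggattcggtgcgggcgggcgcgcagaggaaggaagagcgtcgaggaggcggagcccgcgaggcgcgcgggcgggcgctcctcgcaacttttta
Wwtr1: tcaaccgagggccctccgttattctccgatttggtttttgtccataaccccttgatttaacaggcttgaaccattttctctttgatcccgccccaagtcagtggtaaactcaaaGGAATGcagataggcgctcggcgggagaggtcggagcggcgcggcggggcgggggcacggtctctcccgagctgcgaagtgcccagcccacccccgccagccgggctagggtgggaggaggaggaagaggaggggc
Amotl2: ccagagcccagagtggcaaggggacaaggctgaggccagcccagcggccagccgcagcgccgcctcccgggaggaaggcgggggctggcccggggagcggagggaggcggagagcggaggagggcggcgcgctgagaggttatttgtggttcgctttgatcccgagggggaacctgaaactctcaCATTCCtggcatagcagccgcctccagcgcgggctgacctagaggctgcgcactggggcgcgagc
Ccn1: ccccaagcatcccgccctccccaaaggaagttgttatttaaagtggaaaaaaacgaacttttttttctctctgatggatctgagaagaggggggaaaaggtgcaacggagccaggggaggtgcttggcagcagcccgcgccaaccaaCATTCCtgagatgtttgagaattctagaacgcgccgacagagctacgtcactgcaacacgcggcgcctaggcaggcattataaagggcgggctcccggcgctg

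Marker barcodes held 165 of the 220 UMIs of the 9 genes (75%) while holding 3.01% of all UMIs, most of which were haemoglobin. The classes were nearer in size outside haemoglobin and mitochondrial genes. There marker barcodes held 191779 UMIs, Ptprc barcodes 176131, globin barcodes 653374 and barcodes in no class 188809. Summed over the 9 genes, the level was 748 CPM in replicate 1 and 752 CPM in replicate 2 in marker barcodes (750 ± 2.30), 138 and 39.0 CPM in Ptprc barcodes (88.3 ± 69.7), and 0.306 and 0 CPM in globin barcodes. The marker class was highest in each library, and its counting intervals (from 586 CPM in replicate 1 and 607 CPM in replicate 2) did not reach those of the Ptprc class (up to 202 and 217 CPM). In replicate 2 the Ptprc and globin classes, at 1 and 0 UMIs, could not be told apart. From pooled UMIs, the ratio of marker to Ptprc barcodes was 5.96 (exact 95% counting interval 3.95 to 9.32), from 165 UMIs in 219937 against 27 in 214495. It was 5.44 in replicate 1 and 19.3 in replicate 2, where the Ptprc side was 1 UMI. The globin barcodes had 1 UMI, of Wwtr1, in 6027727 UMIs.

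**Figure D1:**
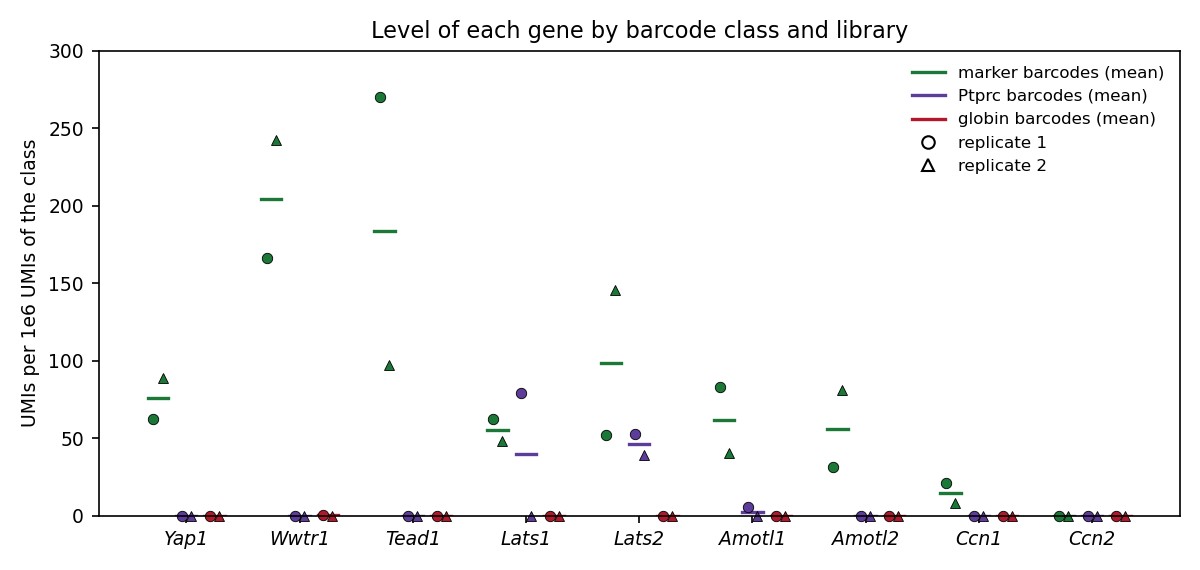
Level of each of the 9 genes as UMIs per 1e6 UMIs of the class, for marker (green), Ptprc (purple) and globin (red) barcodes; circles are replicate 1, triangles replicate 2 and bars the mean of the 2 libraries. Yap1, Wwtr1, Tead1 and Amotl2 lie above 0 in marker barcodes and at 0 in Ptprc barcodes, while the classes overlap for Lats1 and Lats2.

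The coactivators were found in marker barcodes. Wwtr1 (TAZ; ENSMUSG00000027803, mm10 chromosome 3, 57455649 to 57575910, protein-coding) had 16 and 30 UMIs in marker barcodes of replicates 1 and 2, 0 and 0 in Ptprc barcodes, and 1 and 0 in globin barcodes. Its level was 204 ± 53.9 CPM in marker barcodes, at least 14.6-fold above the Ptprc floor (3 UMIs in the pooled Ptprc class, 14.0 CPM). Yap1 (ENSMUSG00000053110, chromosome 9, 7931999 to 8004596) had 6 and 11 UMIs in marker barcodes and 0 in Ptprc and globin barcodes. This gives 75.6 ± 18.8 CPM, at least 5.41-fold above the Ptprc floor and at least 152-fold above the globin floor of 0.498 CPM. Most globin-class UMIs are haemoglobin, and per UMI outside haemoglobin and mitochondrial genes Yap1 was at least 18.9-fold above the globin floor. In replicate 2 the level of Yap1 in marker barcodes (88.9 CPM) was under the 117 CPM that 3 UMIs give in Ptprc barcodes, and that of Wwtr1 (242 CPM) was above it.

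Tead1, the DNA-binding partner (ENSMUSG00000055320, chromosome 7, 112679318 to 112906807), had 26 and 12 UMIs in marker barcodes and 0 in both other classes. Its level differed between the libraries, at 270 and 97.0 CPM in marker barcodes (184 ± 123), at least 12.4-fold above the Ptprc floor. The order of Tead1 and Wwtr1 thus turned between the libraries, with Tead1 higher in replicate 1 and Wwtr1 higher in replicate 2. In replicate 1, 11 of the 26 Tead1 UMIs came from the 7 barcodes with both Col3a1 and Dcn but fewer than 2 mesothelial markers. The other TEAD genes were near the limit: Tead2 had 0 UMIs in all barcodes, while in marker barcodes Tead3 had 0 and 2 and Tead4 had 1 and 3.

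The kinases were found in Ptprc as well as marker barcodes. Lats1 (ENSMUSG00000040021, chromosome 10, 7681214 to 7716460) had 6 and 6 UMIs in marker barcodes and 15 and 0 in Ptprc barcodes, levels of 55.4 ± 9.81 and 39.7 ± 56.2 CPM. Lats2 (ENSMUSG00000021959, chromosome 14, 57689662 to 57758388) had 5 and 18 UMIs in marker barcodes and 10 and 1 in Ptprc barcodes, levels of 98.7 ± 66.1 and 46.0 ± 9.85 CPM. The 2 classes overlapped for both kinases. The pooled ratio of marker to Ptprc barcodes was 0.780 for Lats1 (95% counting interval 0.333 to 1.79) and 2.04 for Lats2 (0.955 to 4.63), so neither differed detectably at this depth. In globin barcodes each had 0 UMIs, which puts Lats1 at least 79.8-fold and Lats2 at least 92.4-fold higher in Ptprc barcodes per total UMI, and at least 10.0-fold and 13.6-fold higher per UMI outside haemoglobin and mitochondrial genes.

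In the Ptprc class, 17 barcodes carried Lats1 or Lats2, 3 of them with both genes, and the other Ptprc barcode with a member carried Amotl1 alone. Of the 17, 7 had a UMI of Ebf1, a B cell transcription factor, and 3 of Cd79a, also a B cell gene. Lyz2 and Itgam, which mark myeloid cells, were found in 7 each, and Cd3e, a T cell receptor subunit, in 0. Among all 93 Ptprc barcodes Ebf1, Cd79a, Lyz2, Itgam and Cd3e were found in 37, 9, 17, 19 and 2. Barcodes with a member were deeper, with a median of 2966 UMIs against 1518 in Ptprc barcodes without one.

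Of the angiomotin-like genes, Amotl1 (ENSMUSG00000013076, chromosome 9, 14541966 to 14645056) had 8 and 5 UMIs in marker barcodes and 1 and 0 in Ptprc barcodes, or 61.8 ± 30.2 against 2.65 ± 3.74 CPM. Its pooled ratio was 12.7 with a wide counting interval of 1.90 to 539. Amotl2 (ENSMUSG00000032531, chromosome 9, 102716672 to 102733418) had 3 and 10 UMIs in marker barcodes and 0 in both other classes. At 56.0 ± 35.1 CPM it was at least 4.0-fold above the Ptprc floor. In replicate 2 both genes lay under the Ptprc floor of 117 CPM in marker barcodes, and Amotl2 of replicate 1 rested on 3 UMIs. Amot, the third angiomotin gene, had 0 UMIs in all barcodes.

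The secreted targets were nearly undetected in these classes. Ccn1 (ENSMUSG00000028195, chromosome 3, 145646976 to 145649981) had 2 and 1 UMIs in marker barcodes, in 1 barcode of each library, and 0 in Ptprc and globin barcodes. Ccn2 (ENSMUSG00000019997, chromosome 10, 24595442 to 24598683) had 0 UMIs in the 3 classes, which allows up to 13.6 CPM in marker barcodes and a UMI in up to 5.66% of them. With both groups at or under 3 UMIs, no fold can be given for either. The genes differ in length, and the sources used here do not say whether intronic reads were counted. Counted genes on the opposite strand overlap Yap1, Tead1, Amotl1 and Ccn2 in GENCODE M21, and had 1, 1, 0 and 1 UMIs in all barcodes. Tead1 and Amotl1 overlap 2 annotated genes each, of which 1 was counted. Wwtr1 and Lats2 overlap 1 and 3 annotated genes, none of them counted. Per kilobase of gene body, marker levels were 4.80 ± 2.99 CPM for Ccn1, 3.34 ± 2.10 for Amotl2, 1.70 ± 0.448 for Wwtr1, 1.57 ± 0.278 for Lats1, 1.44 ± 0.962 for Lats2, 1.04 ± 0.258 for Yap1, 0.807 ± 0.539 for Tead1 and 0.599 ± 0.293 for Amotl1. Neighbours in this order lay within their spread, and Ccn1 with its 3 UMIs stood first on this scale.

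By barcode, 20 of 30 marker barcodes in replicate 1 (66.7%, with exact binomial 95% bounds of 47.2 and 82.7) and 16 of 23 in replicate 2 (69.6%, bounds 47.1 and 86.8) had a UMI of a member, against 17 of 81 (21%, bounds 12.7 and 31.5) and 1 of 12 (8.33%, bounds 0.211 and 38.5) Ptprc barcodes and 1 of 471 and 0 of 373 globin barcodes. Thinned to 1000 UMIs, the expected shares were 42.1% and 41.2% in marker barcodes (25 and 19 deep enough), 9.53% and 7.60% in Ptprc barcodes (65 and 7) and 0.0635% and 0% in globin barcodes (471 and 372). Thinning matched total UMIs only: outside haemoglobin and mitochondrial genes the median depths were 1649 and 3157 UMIs in marker barcodes, 1290 and 553 in Ptprc barcodes and 721 and 688 in globin barcodes, so the classes were not equally deep for these genes. Wwtr1 was found in 7 of 30 and 11 of 23 marker barcodes, Tead1 in 11 and 5, Yap1 in 5 and 8, Lats2 in 3 and 10, Lats1 in 6 and 5, Amotl1 in 6 and 3, and Amotl2 in 2 and 6. In Ptprc barcodes 0 of 93 had Yap1, Wwtr1, Tead1 or Amotl2, which allows a share of up to 3.23% each (3 barcodes in 93), and in globin barcodes 0 of 844 had Yap1, Tead1 or a kinase, which allows 0.355% (3 in 844).

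**Figure D2:**
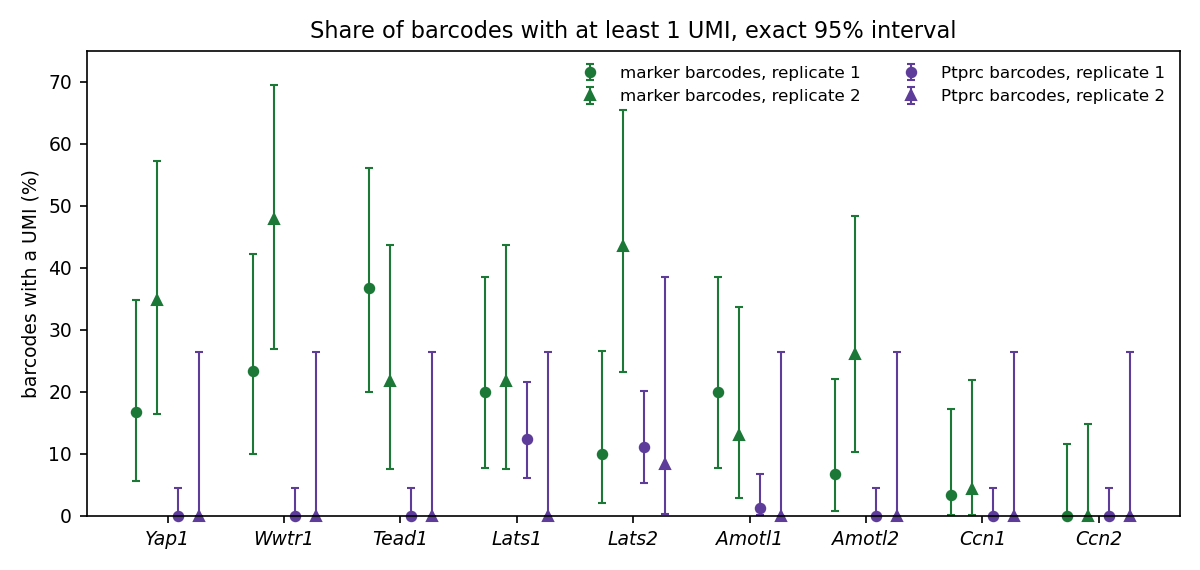
Share of barcodes with at least 1 UMI of each gene, in percent, for marker (green) and Ptprc (purple) barcodes; circles are replicate 1, triangles replicate 2 and bars exact binomial 95% intervals. Wwtr1 reaches 47.8% in replicate 2 of the marker class and is at 0 in Ptprc barcodes, whose interval in replicate 2 extends to 26.5% because it has 12 barcodes.

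Within the marker class the genes gathered in the deep barcodes. The 36 marker barcodes with a member had a median of 4378 UMIs and 1790 genes, the 17 without one 1514 UMIs and 416 genes. No member was found in 17 marker barcodes, 1 in 14, 2 in 9 and between 3 and 7 in 13. The 6 barcodes with most member UMIs held 46.1% of the class's member UMIs, and the richest had 18 UMIs of 7 members among 21012. Barcodes over 20% mitochondrial UMIs held 15 of the 165 UMIs, at 347 CPM against 849 CPM in the other marker barcodes. Counted per 1e6 UMIs outside haemoglobin and mitochondrial genes these levels were 631 and 893, a narrower gap.

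Mesothelial and collagen-type markers mostly fell in the same barcodes. With both at least 2 mesothelial markers and both Col3a1 and Dcn, 27 barcodes held 118 member UMIs (798 CPM) in 23 barcodes. With 2 mesothelial markers but not both collagen-type genes, 10 barcodes held 25 UMIs (640 CPM), and with both collagen-type genes but fewer than 2 mesothelial markers, 9 barcodes held 19 UMIs (941 CPM), of which 11 were Tead1 and 1 was Wwtr1. These last 2 values turned between the libraries: the group without both collagen-type genes had 296 CPM in replicate 1 and 823 CPM in replicate 2, and the group with fewer than 2 mesothelial markers had 1113 and 248 CPM, with 18 of its 19 UMIs in replicate 1. Barcodes with 2 of the 5 markers had 3 member UMIs in 14 barcodes, and those with 5 had 104 in 16. Their median depths were 1049 and 5851 UMIs, so the number of markers moved with depth, and its own part was not tested.

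**Figure D3:**
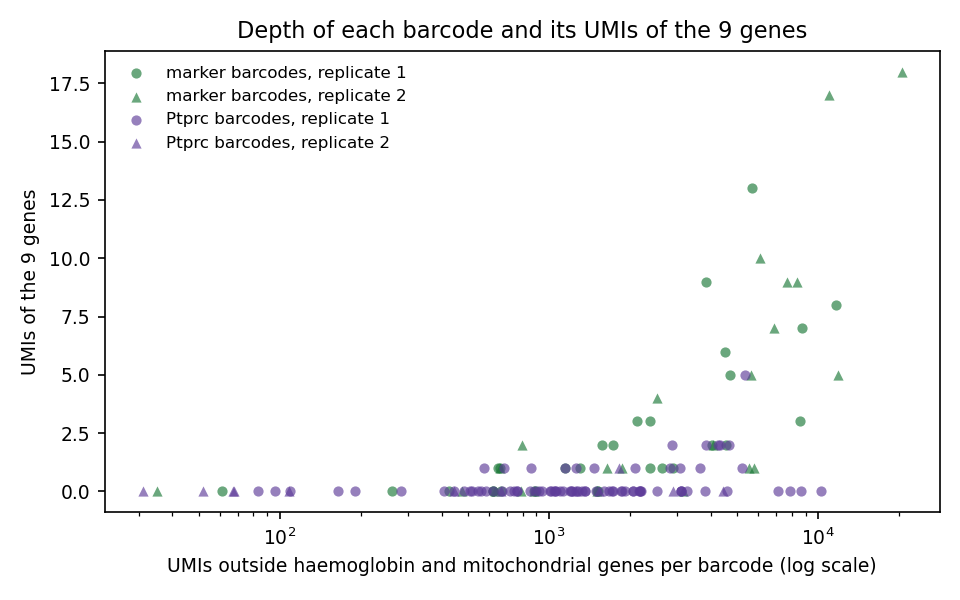
Each point is 1 barcode, with its UMIs outside haemoglobin and mitochondrial genes (log axis) and its UMIs of the 9 genes; marker barcodes are green, Ptprc barcodes purple, circles replicate 1 and triangles replicate 2. Marker barcodes reach 18 UMIs of the 9 genes, whereas the highest Ptprc barcode has 5.

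Coactivator and partner transcripts were found in some of the same barcodes. A UMI of Yap1 or Wwtr1 was present in 22 of 53 marker barcodes, and 11 of these 22 also had Tead1, against 16 with Tead1 in all. Yap1 and Wwtr1 were found together in 9 barcodes, 3 in replicate 1 and 6 in replicate 2. Of the 18 marker barcodes with Lats1 or Lats2, 12 had a coactivator UMI. These counts follow depth as well: barcodes with a coactivator had a median of 5776 UMIs and those without 1867.

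UMIs summed per class and library were then tested with edgeR's quasi-likelihood test, the library as a block, and p-values adjusted over all genes by Benjamini-Hochberg. Against Ptprc barcodes, 435 of 2173 genes tested were higher in marker barcodes (20%) and 211 lower (9.71%). Scaled by UMIs outside haemoglobin and mitochondrial genes, 414 were higher and 384 lower, so that the higher share of calls was 51.9% in place of 67.3%. Only 2 members, Wwtr1 and Tead1, had enough UMIs to be tested, and both were called higher, Wwtr1 with a log2 fold change of 7.40 (SE 1.64, edgeR adjusted p = 6.07e-05) and Tead1 with 7.92 (SE 1.67, edgeR adjusted p = 2.59e-05). In replicate 2 alone Tead1 was not shown to be higher, since its 97.0 CPM in marker barcodes lay under the Ptprc floor of 117 CPM. The median over all genes tested was 0.22. Since each had 0 Ptprc UMIs, they could pass the filter only by being high in marker barcodes, and the fitted values depend on edgeR's prior count, so the folds over the floor above are the measure of size. The spread was estimated wholly across genes (infinite prior degrees of freedom), so the gap between the Tead1 levels of replicates 1 and 2 does not widen its own p-value.

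With every gene of at least 10 UMIs tested, 441 of 6272 genes were higher (7.03%) and 7 members entered. Wwtr1 and Tead1 remained called. With 0 or 1 Ptprc UMIs, Wwtr1, Tead1, Yap1, Amotl2 and Amotl1 could enter only through their marker UMIs. Their direction was thereby set, and neither it nor their adjusted p-values are support. Yap1 stood at a log2 fold change of 5.97 (edgeR adjusted p = 0.0767), Amotl2 at 5.19 (edgeR adjusted p = 0.223) and Amotl1 at 3.95 (edgeR adjusted p = 0.207). Lats2 stood at 0.86 (edgeR adjusted p = 0.841) and Lats1 at 0.47 (edgeR adjusted p = 0.954). For Lats1 the direction is opposite to that of the pooled ratio of 0.780, which has no library block or trimmed-mean scaling. Neither value is a detectable difference. DESeq2 gave Wwtr1 and Tead1 no adjusted p, its filter having set them aside, and unadjusted p-values of 0.0111 and 0.0148 by DESeq2.

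Against globin barcodes, scaled by total UMIs, 2932 of 3228 genes were higher in marker barcodes (90.8%), so the calls of Wwtr1, Tead1, Yap1 and Lats2, the 4 members tested, are what nearly every gene there showed. In Ptprc against globin barcodes 2186 of 2529 genes were higher (86.4%) and 0 members passed the filter. With at least 10 UMIs, 3623 of 4256 genes were higher there. Lats1 and Lats2, the members tested, were both called, as most genes were.

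Further genes of the pathway were described with 2 lists, 22 other Hippo genes and 20 genes known as YAP/TAZ-responsive, the second known mostly from human cells. The Hippo list summed to 1974 ± 163 CPM in marker barcodes against 1391 ± 533 in Ptprc barcodes, with both marker libraries above both Ptprc libraries. Of 9 Hippo genes tested, 3 rose in marker over Ptprc barcodes and 0 fell, beside 20% and 9.71% of all genes tested, with a median log2 fold change of 0.24 against 0.22 for all genes. The 3 were Ptpn14, a phosphatase that binds YAP, with 21 and 24 UMIs in marker and 3 and 0 in Ptprc barcodes (log2 fold change 4.18, edgeR adjusted p = 9.91e-04), Wwc2, a relative of the upstream scaffold Kibra, with 31 and 41 against 7 and 0 (3.74, edgeR adjusted p = 8.79e-04), and Frmd6, a junctional FERM-domain protein, with 14 and 13 against 2 and 0 (4.06, edgeR adjusted p = 0.00504). From pooled UMIs these were ratios of 14.6 for Ptpn14 (95% counting interval 4.70 to 73.6), 10.0 for Wwc2 (4.63 to 25.8) and 13.2 for Frmd6 (3.31 to 114). These 3 could pass the filter only by being high in marker barcodes, so neither their count nor their adjusted p-values are support for the list. Wwc1 (Kibra) had 7 and 12 UMIs in marker and 0 in Ptprc barcodes and was not tested.

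The upstream kinases were found in both classes. Stk4 (MST1) had 9 and 4 UMIs in marker barcodes and 59 and 5 in Ptprc barcodes, or 62.9 ± 43.3 against 254 ± 82.9 CPM (log2 fold change -1.82, edgeR adjusted p = 0.101). Stk3 (MST2) had 16 and 20 against 15 and 0 (1.85, edgeR adjusted p = 0.131). Neither passed the threshold. Map4k4, Taok1 and Taok3, which act on LATS from further upstream, and Vgll4, a TEAD-binding antagonist of YAP, lay between -0.28 and 0.24 with edgeR adjusted p-values of 0.88 or more. Fat4, Dchs1, Amot and Tead2 had 0 UMIs in all barcodes.

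The target list summed to 3162 ± 135 CPM in marker barcodes, against 755 ± 572 in Ptprc and 28.0 ± 2.88 in globin barcodes. Of 7 genes tested, 4 rose in marker over Ptprc barcodes and 0 fell, beside 20% and 9.71% of all genes tested, with a median log2 fold change of 3.35 against 0.22. All 7, Myof included, passed the filter only with their marker UMIs. Neither that count, that median nor an adjusted p-value below is therefore support for the list as a whole. Dlc1 had 58 and 88 UMIs in marker and 0 in Ptprc barcodes, at least 47.0-fold above the Ptprc floor. Ccdc80, a matrix protein, had 38 and 56 in marker and 0 in Ptprc barcodes, at least 30.3-fold above that floor. Rbms3, an RNA-binding protein, had 64 and 120 in marker and 1 and 1 in Ptprc barcodes, a pooled ratio of 89.7 (95% counting interval 24.5 to 746). Myof, a membrane repair protein, had 31 and 13 against 5 and 1 (3.35, edgeR adjusted p = 0.00568). Crim1, a transmembrane regulator of BMP ligands, stood at 2.10 (edgeR adjusted p = 0.0513), Dock5 at 1.34 (edgeR adjusted p = 0.301) and Asap1 at 0.13 (edgeR adjusted p = 0.95).

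The other target genes named here were chosen after their values were seen. Axl, a receptor kinase, had 4 and 10 UMIs in marker barcodes and 0 in the other classes. Nuak2 and Nt5e went the other way and were not tested against Ptprc barcodes. Nuak2 had 0 and 2 UMIs in marker and 13 and 2 in Ptprc barcodes, or 8.08 ± 11.4 against 73.4 ± 6.51 CPM. Nt5e had 0 and 3 against 7 and 1, or 12.1 ± 17.1 against 38.0 ± 1.38 CPM. Ankrd1 had 0 in the 3 classes, Igfbp3 had 0 and 1 in marker barcodes, and Fjx1 and Foxf2 had 0 in all barcodes. Gadd45a, a stress-induced gene, had 0 and 2 UMIs in marker, 4 and 0 in Ptprc and 77 and 80 in globin barcodes. The globin class also holds most of all UMIs, and the levels were 8.08 ± 11.4, 10.6 ± 15.0 and 26.3 ± 3.84 CPM. Gadd45a was not called in marker over globin barcodes (log2 fold change -1.56, edgeR adjusted p = 0.21). Nor was it called in Ptprc over globin barcodes (-0.43, edgeR adjusted p = 0.724). Each of these genes is also expressed under other controls, and nothing in the counts shows that YAP or TAZ set their level.

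Over the 6 sums of class and library, the genes whose log2(CPM + 10) followed the summed member level most closely were Crip1 (Pearson's r = 0.997), Fhit (0.995), Exoc6b (0.994), Memo1 (0.993) and Kif13a (0.993), of 4348 genes with at least 20 UMIs. The likeness covers 6 points in 3 classes and was above 0.95 for 217 genes. Crip1 had 111 and 202 UMIs in marker, 49 and 1 in Ptprc and 2 and 0 in globin barcodes. All 5 shared with the members a count of 1 UMI in the Ptprc barcodes of replicate 2.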

How the data were processed

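The authors deposited raw UMI counts per gene and barcode for each library, made with Cell Ranger 7.1.0 per the file headers; mm10 and Seurat 5 are named in the submitters' processing notes with no role. Barcode calling, counting of introns, use of strand and removal of doublets before deposit are not stated in the labels, and no doublet caller was run. The members, classes and lists were chosen with earlier results of these data known. Classes follow the definitions in the text (10 haemoglobin genes, 13 mt- genes). Levels are UMIs per 1e6 UMIs of the class (CPM). Shares have exact binomial (Clopper-Pearson) 95% intervals; the limit for a count of 0 is 3 barcodes of the class, not that interval; a floor is 3 UMIs over the pooled class, and a bound on a fold takes the lower of the mean and pooled level over it; thinning is the hypergeometric expectation. UMIs summed per class and library were tested in edgeR 4.0.16 (R 4.3.3; filterByExpr; trimmed-mean scaling for marker over Ptprc, total UMIs for comparisons with globin barcodes; library as a block, since both sums come from 1 library; 1 residual degree of freedom; Benjamini-Hochberg over all genes, threshold 0.05). The genes that chose the barcodes were not tested. On simulated data the fit recovered 77.4% of changed genes tested (marker over Ptprc), 70.7% (marker over globin) and 77.3% (Ptprc over globin). False calls numbered 0, 2 and 0. The simulation had no difference between libraries and changed only genes with UMIs expected in every sum. It therefore does not cover members at 0 UMIs in a class. All 9 members were named; of the further lists, genes called against Ptprc barcodes and genes with 0 UMIs, the others named after their values were seen. Alternatives were other scalings and filters, DESeq2 1.42.0, other class definitions, no block, and single libraries. Coordinates are from GENCODE M21 (mm10). Python packages were scipy 1.17.1 and pandas 2.3.3.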

Additional observations from a re-analysis of the deposited data

Results flagged for a closer look

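The comparisons of classes do not use the 863 barcodes that met none of the 3 definitions, and these held 27 UMIs of the 9 genes in 16 barcodes, above the 3 UMIs that a count of 0 allows. Of the 16 barcodes, 14 had over 20% mitochondrial UMIs and 3 carried 1 of the 5 markers. Ccn1 had 9 of its 12 UMIs here, all in 1 barcode of replicate 1 with 5045 UMIs, 1450 genes and 1.82% mitochondrial UMIs, which also had 1 UMI of Tead1. That barcode had a UMI each of the endothelial genes Cdh5 and Flt1 and of Srgn, and 0 of the 14 mesothelial and 8 fibroblast markers. Wwtr1 had 6 UMIs in 6 barcodes, 5 of them over 20% mitochondrial UMIs. Amotl1 had 4 UMIs in 4 barcodes of replicate 2, of which 3 were over that limit. The remaining UMI of each lay in 1 shared barcode of replicate 2 with 3060 UMIs, 1 UMI each of Wwtr1, Amotl1 and Amotl2, and 5 of 8 endothelial markers (Pecam1, Tek, Emcn, Flt1 and Egfl7). The only Ccn2 UMI of the series lay in a barcode of replicate 1 over the mitochondrial limit that carried 1 of the 5 markers.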

How the results depend on the processing

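The number of members called higher in marker over Ptprc barcodes stayed at 2 under every alternative that could give it except 2: it was 1 with at least 2 mesothelial markers and 1 with both Col3a1 and Dcn, where Tead1 was no longer tested. DESeq2 gave no value. Over globin barcodes the 4 calls were 7 with no filter on low counts (beside 6835 of 12602 genes higher) and 7 with at least 10 UMIs (4095 of 4547). They were 2 with all 3 classes in 1 fit (2829 of 3093) and 3 with at least 2 mesothelial markers (2705 of 3003), where Yap1 was not tested. In Ptprc over globin barcodes the 0 calls were 2 with no filter (5840 of 11746) and 2 with at least 10 UMIs (3623 of 4256). The filter sets how many members are tested, and in marker over Ptprc barcodes Wwtr1 and Tead1 passed it only through their marker UMIs. Without the replicate block the members called numbered 2, 4 and 0, as with it. No tested member changed direction or lost its call where it had an adjusted p; Wwtr1 ran from 7.18 to 7.61 over Ptprc barcodes and from 4.92 (trimmed-mean scaling) to 10.62 (at least 90% globin UMIs) over globin barcodes. Scaled outside haemoglobin and mitochondrial genes, the summed ratio over globin barcodes was 562 for marker barcodes in place of 4522 and 100.2 for Ptprc barcodes in place of 759. Single libraries leave no residual degrees of freedom and gave ratios with no test: the summed ratio of marker to Ptprc barcodes was 5.44 to 19.3. The share of marker barcodes with a member (68.1% ± 2.05) was 66.7 to 69.6% by library, 78.9% within 20% mitochondrial UMIs, 66.0% with barcodes of several classes kept, 41.7% thinned to 1000 and 73.3% to 2000 UMIs; that of Ptprc barcodes (14.7%) was 8.33 to 21% by library and 24.5% within that limit. Counts over all genes in marker over Ptprc barcodes (435 higher, 211 lower) were 235 and 100 with no filter, 120 and 36 by DESeq2, and 384 lower when scaled outside haemoglobin and mitochondrial genes; the median log2 fold change was 0.03 with total UMIs, 0.37 with RLE and -0.32 with that scaling. Over globin barcodes (2932 and 76) they were 6835 higher with no filter, and 522, 447 and 282 lower with trimmed-mean, RLE and that scaling, the first with 80.5% of calls higher in place of 97.5%. In Ptprc over globin barcodes (2186 and 66) they were 781 and 539 with trimmed-mean scaling, 5840 higher with no filter, 3623 higher with at least 10 UMIs, and 484 and 244 lower with RLE and that scaling, with 59.2% of calls higher under trimmed-mean in place of 97.1%. Depth limits all of this: the members had 165 UMIs in marker barcodes and 27 in Ptprc barcodes.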

Other observations

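The 5 UMIs of Ankrd1, a cardiac ankyrin repeat protein and YAP target, lay in 1 barcode of replicate 2 with 749 UMIs and 72.2% mitochondrial UMIs, which had 0 UMIs of the 9 genes, of the 5 markers and of Ptprc.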
